A study of Mus musculus with 2 samples.

Results

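Polyamines are small positively charged molecules that cells need for nucleic acid binding, translation and growth, and the prostate is one of the organs that make and secrete the most of them. Ornithine decarboxylase, encoded by Odc1, makes putrescine from ornithine. Decarboxylated S-adenosylmethionine, the product of Amd1, then supplies the groups that spermidine synthase (Srm) and spermine synthase (Sms) add to give spermidine and spermine. Antizymes (Oaz1, Oaz2) bind ornithine decarboxylase and send it to the proteasome, and their own translation needs a ribosomal frameshift that polyamines favour. The antizyme inhibitor Azin1, a relative of ornithine decarboxylase without its activity, holds antizyme back. In breakdown, Sat1 acetylates spermidine and spermine, Paox oxidises the acetylated forms and Smox oxidises spermine.

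These 10 genes were described in the ventral prostate, a lobe of the mouse gland that depends on androgen and makes secretions. A probe set, the group of array probes read together as 1 value, was taken when the platform annotation gave it exactly 1 gene symbol and that symbol was among the 10. This gave 14 probe sets of 7 genes, out of 18193 genes on the array. Odc1, Oaz2 and Azin1 had 3 probe sets each, Smox had 2, and Srm, Sat1 and Oaz1 had 1 each. Sms was listed only together with its pseudogene Sms-ps, in 3 probe sets, and 1 further probe set was shared by Oaz1 and Oaz1-ps. Those 4 were not used. Amd1 and Paox had no probe set listed under their symbols. The step feeding both synthases, spermine synthesis by Sms and the oxidation of acetylated polyamines were therefore not analysed here.

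The study compared male mice aged 3 months on the C57BL/6J background, wild type (U19/Eaf2 +/+) or homozygous for loss of U19/Eaf2 (U19/Eaf2 -/-), an androgen-induced elongation-factor partner studied as a tumour suppressor. No treatment is named for either genotype. Each genotype had 1 sample on 1 array, and the labels do not say whether several animals went into a sample. With 1 array per genotype there was no replicate, so no test, standard error or p-value is given and every value describes these 2 arrays.

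Some facts of the arrays bear on all values. The probe set for Eaf2 read 691 in wild type and 702 on the other, a log2 ratio of 0.02, and the labels do not say which part of the gene the deletion took out. The label could therefore not be checked, and the second array is called the knockout-labelled array. Signals are in scanner units after scaling of each array as a whole, and log2 ratios are the knockout-labelled array over wild type. Values below a floor of 166, the median of the pooled signals, were raised to it. Among 11671 genes that reached the floor on at least 1 array, 1.47% were at least 2-fold apart, 11.0% at least 1.5-fold, 47.0% had a log2 ratio above 0, and the median was -0.03. The brightest 10% of genes had a median of 0.10. Probe sets of the same gene differed in log2 ratio with an SD of 0.36 around their gene's mean (4497 genes), or 0.51 for the difference between a pair. That is the only measure of spread the data hold, and it leaves out animals, dissection and hybridisation. It can also hold true differences between transcripts of a gene, so it is not error alone.

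The tissue label was checked against marker genes. All 7 luminal epithelial markers with a probe set of 1 symbol (9 listed) reached the floor, with summed signals of 99242 in wild type and 92232 on the knockout-labelled array, and of the ventral secretory products Spink1 read 62610 and 64718 and Msmb read 41774 and 32270. The 5 seminal vesicle markers stayed below the floor, with sums of 237 and 172. Stromal, fat and urothelial markers differed between the arrays. The 6 smooth muscle markers were all lower on the knockout-labelled array (sums of 50299 and 37125), as were the 6 fibroblast markers (21578 and 18357; 4 of 6 under median centring), while 3 adipocyte markers were higher in sum (586 and 1268), 2 of them reaching the floor. Urothelial markers summed to 6703 and 4804, with 3 of 4 lower on the knockout-labelled array. Leukocyte markers summed to 2434 and 2614, basal markers to 1801 and 1515 and endothelial markers to 1056 and 1035. The anterior-lobe product Tgm4 read 274 and 121. No marker was at 0. The 3' over 5' ratio of the Actb control probes, a guide to RNA integrity, was 1.25 in wild type and 1.65 on the knockout-labelled array, and that of Gapdh was 0.714 and 0.847. In whole tissue, fewer cells of a type and less RNA per cell cannot be told apart, and the part of these shifts and of RNA integrity in the polyamine values was not tested.

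Of the 7 polyamine genes, each taken by its brightest probe set, 0 were 2-fold apart against 1.47% of all genes, and 0 were 1.5-fold apart against 11.0%. For so few genes these counts lie near the shares of all genes and show nothing particular to the pathway. Their log2 ratios ran from -0.29 for Srm to 0.34 for Sat1, and 4 were above 0 and 3 below (5 and 2 after median centring of the arrays). Their median was 0.13, beside -0.03 over all genes and 0.10 over the brightest 10% of genes. It was 0.03 when each gene was taken by the median over its probe sets or by the probe set nearest to a ratio of 0. No gene reached 0.36, the within-gene SD, in size, whereas 30.5% of all genes did. With other scalings Sat1 passed it at 0.40 under median centring and Srm at -0.37 under quantile normalization. Among the 13 probe sets that reached the floor, 7 were higher and 6 lower on the knockout-labelled array, with a median of 0.02 (45.2% of all probe sets with 1 symbol were higher), and 0 were 2-fold apart against 1.72% of all.

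**Figure D1:**
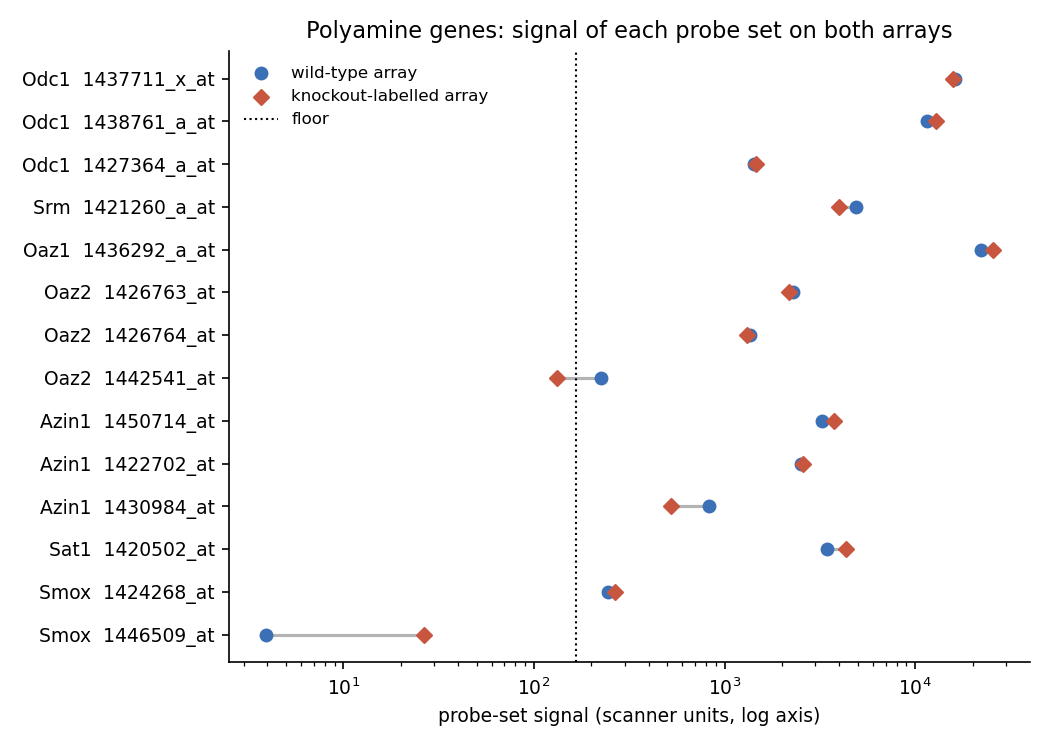
Signal of each of the 14 probe sets of polyamine genes (scanner units, log axis) on the wild-type array (circles) and the knockout-labelled array (diamonds), with 1 array per genotype and the floor of 166 as a dotted line. The 3 widest gaps are in the dim Smox probe set at 3.92 and 26.4, below the floor on both arrays, in the third Oaz2 probe set at 225 and 132, and in the third Azin1 probe set at 833 and 523.

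In synthesis, Odc1, the rate-limiting enzyme, was read by some of the brightest probe sets of the array and differed little. Its probe set 1437711_x_at read 16145 in wild type and 15781 on the knockout-labelled array, a log2 ratio of -0.03. Probe set 1438761_a_at read 11554 and 12900, with a ratio of 0.16, and 1427364_a_at read 1424 and 1455, with 0.03. The first of these was brighter than 99.4% of probe sets in wild type and 99.3% on the other array, and the dimmest of the 3 was brighter than 89.1% and 89.0%. So all 3 Odc1 probe sets read far above the floor on both arrays, with no common direction: 2 were slightly higher and 1 slightly lower. Even these signs moved with the scaling, since 1427364_a_at turned to -0.0094 under quantile normalization and 1437711_x_at to 0.03 under median centring. The 3 log2 ratios spanned 0.19, a narrower span than in 89.1% of the 1116 genes that had 3 probe sets past the floor in both samples. All 3 have names ending in _a_at or _x_at, which mark probes shared by several transcripts of a gene or liable to bind other transcripts. How far other transcripts add to these signals was not tested.

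Srm, which turns putrescine into spermidine, was the lowest of the 7 genes. Its only probe set, 1421260_a_at, read 4870 in wild type and 3981 on the knockout-labelled array, 1.22-fold lower, a log2 ratio of -0.29. Of all genes, 21.3% had a lower ratio. The value stayed below 0 under every scaling tried, from -0.37 with quantile normalization to -0.23 with median centring. No second probe set was there to set beside it.

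The antizymes Oaz1 and Oaz2 differed by 0.30 in log2 ratio, within the 0.51 SD of a pair. Oaz1, the widely expressed antizyme, read 22091 and 25721 in 1436292_a_at, a log2 ratio of 0.22 or 1.16-fold higher on the knockout-labelled array. It was brighter than 99.6% of probe sets in wild type and 99.7% on the other. Oaz2, a second antizyme with the same frameshift design, read 2297 and 2166 in 1426763_at and 1353 and 1316 in 1426764_at, with log2 ratios of -0.08 and -0.04. The first 2 Oaz2 probe sets thus read close to equal on both arrays. The third, 1442541_at, read 225 in wild type and 132, under the floor, on the knockout-labelled array, so that it was at least 1.36-fold lower (a bound of -0.44). All 3 Oaz2 probe sets had ratios below 0, the first 2 by less than the within-gene SD of 0.36. Under median centring 1426764_at turned to 0.02.

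Azin1, which releases ornithine decarboxylase from antizyme, gave the widest disagreement between probe sets. Probe set 1450714_at read 3231 in wild type and 3754 on the knockout-labelled array, a log2 ratio of 0.22. Probe set 1422702_at read 2529 and 2566, a ratio of 0.02. Probe set 1430984_at went the other way, reading 833 and 523, 1.59-fold lower with a ratio of -0.67. This was the only one of the 13 probe sets past 1.5-fold, where 12.5% of all probe sets with 1 symbol were past it and 7.62% were past it downwards. The 3 ratios spanned 0.89, and 17.0% of genes with 3 such probe sets had a wider span (median 0.54). Which Azin1 transcripts each probe set reads was not tested, and no gene-level difference follows from values that disagree in sign. Under quantile normalization and loess, 1422702_at turned to -0.05 and -0.04.

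In breakdown, Sat1, the acetyltransferase that starts polyamine catabolism and export, was the highest of the 7 genes. Its only probe set, 1420502_at, read 3441 in wild type and 4350 on the knockout-labelled array, 1.26-fold higher, a log2 ratio of 0.34. Of all genes, 84.8% had a lower ratio. The Sat1 ratio stayed above 0 under every alternative, from 0.26 with quantile normalization to 0.40 with median centring. With 1 probe set well above the floor, only the scalings and the pseudocount changed it. The summed leukocyte markers (2434 and 2614) and adipocyte markers (586 and 1268) were also higher on the knockout-labelled array. Of the leukocyte markers that reached the floor, 3 were higher and 1 was lower, Cd68 at 249 and 163. The sums of luminal, smooth muscle, fibroblast and urothelial markers were lower. The part of these shifts in the Sat1 value was not tested.

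Smox, the oxidase that turns spermine back into spermidine, read near the floor. Its probe set 1424268_at read 244 and 267, a log2 ratio of 0.13, and was brighter than 57.8% and 61.9% of probe sets. The other, 1446509_at, read 3.92 and 26.4, below the floor on both arrays, and gives no fold. The deposited values carried no detection calls, so low Smox expression and background cannot be told apart on these arrays.

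**Figure D2:**
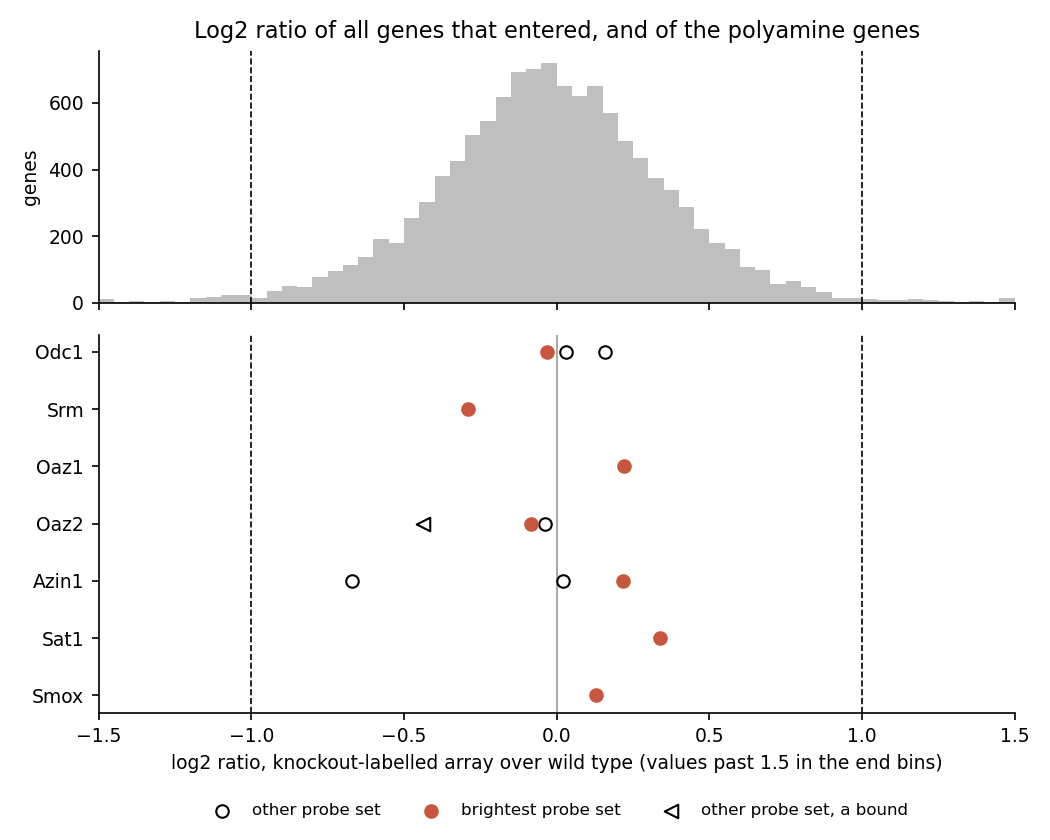
Upper panel, number of genes by log2 ratio (knockout-labelled array over wild type) for the 11671 genes that entered; lower panel, log2 ratios of the 13 polyamine probe sets that entered, with the brightest probe set of each gene filled, other probe sets open, and a bound as a triangle. Dashed lines mark 2-fold, which 0 of the 13 reached; among those measured on both arrays, the third Azin1 probe set at -0.67 lies farthest from 0.

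Set against each other, the ratios of the 7 genes were mostly closer together than the spread between probe sets of the same gene. Of 21 gene pairs, 3 differed by more than 0.51, the SD of the difference between a pair of probe sets of the same gene, and all 3 held Srm. The share of all gene pairs that differ by as much was not counted, and the log2 ratios of all genes had an SD of 0.37. The count is therefore not read as a trait of the pathway or of Srm. The ratio of Srm was 0.63 below that of Sat1. It was 0.51 below that of Oaz1 and 0.51 below that of Azin1 in its brightest probe set, both close to that SD. Odc1 and Oaz1, enzyme and antizyme, differed by 0.25 in log2 ratio, within that SD. Signals of different probe sets depend on their probes, so the levels of the genes were not ranked.

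**Figure D3:**
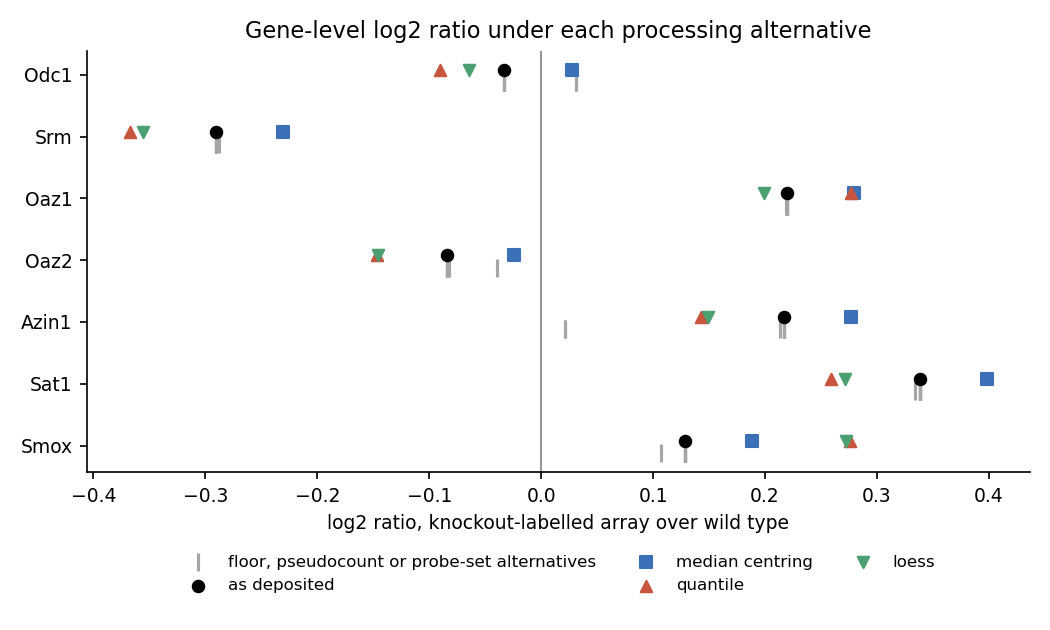
Log2 ratio (knockout-labelled array over wild type) of each of the 7 genes as deposited, under 3 other scalings (coloured symbols) and under the floor, pseudocount and probe-set alternatives (grey ticks). Srm stays below 0 between -0.37 and -0.23 and Sat1 above 0 between 0.26 and 0.40, while Odc1 lies on both sides of 0, between -0.09 and 0.03.

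The genes around the pathway, which supply its substrates, carry polyamines or use them, had ratios on both sides of 0. Of 53 listed, 49 had a probe set with 1 symbol and 39 reached the floor. Of these 39, 18 were higher and 21 lower on the knockout-labelled array (22 and 17 after median centring), with a median of -0.02 beside -0.03 over all genes. By the brightest probe set of each gene, 0 of 39 passed 2-fold against 1.47% of all genes, and 0 of 39 passed 1.5-fold against 11.0%. In size 8 of 39, or 20.5%, reached the within-gene SD of 0.36 (Enoph1, Mtap, Atp13a3, Dohh, Apip, Sat2, Slc7a7 and Gatm) against 30.5% of all genes. Enoph1 lay just inside 1.5-fold, at 1.498-fold, and past it under median centring, with a log2 ratio of 0.64.

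Arginine and ornithine supply had 7 genes that reached the floor, 3 higher and 4 lower. The lower ones include Azin2, an antizyme inhibitor that was listed in this group and is described below. Arg2, the mitochondrial arginase that makes ornithine, read 5989 and 5950, a log2 ratio of -0.01, with 0.14 in its other probe set. Oat, which links ornithine to proline and glutamate, read 5888 and 6155, a ratio of 0.06. Arg1, the cytosolic arginase, read 291 and 341, with 0.23, and Gatm, which uses arginine for creatine synthesis, read 245 and 189, with -0.37. By their brightest probe sets, both ornithine enzymes with high signals thus read close to equal. The highest and lowest ratios of the group came from Arg1 and Gatm, near the floor.

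The methionine cycle and salvage pathway, which makes S-adenosylmethionine and recycles the methylthioadenosine that polyamine synthesis leaves behind, had 6 genes higher and 4 lower. Enoph1, a salvage enzyme, read 1260 and 1887, a log2 ratio of 0.58 that was the highest of the 39, but its other probe set had -0.06. Mtap, which cleaves methylthioadenosine, had 0.45, with other probe sets from -0.39 to 0.08, 2 of 3 opposite. Mat2b, a regulatory subunit of methionine adenosyltransferase, read 3424 and 4321, with 0.34 in its only probe set. Apip, another salvage enzyme, read 1103 and 781, with -0.50 in its only probe set. Adi1, a dioxygenase of the same route, had -0.24, and its other 2 probe sets had -0.31 and -0.15. Mri1, an isomerase of the salvage route, had -0.14. The positive ratios of Enoph1 and Mtap came from probe sets of the _x_at and _a_at kinds. With probe sets of the _a_at, _s_at and _x_at kinds left out, Enoph1 had -0.06 and Mtap -0.39, beside a median of -0.04 over all genes. The sign of both genes thus depended on the probe set taken.

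Hypusine is a modified lysine made from spermidine on the translation factor eIF5A, and its 4 genes were 2 higher and 2 lower. Eif5a read 28105 and 23357, a log2 ratio of -0.27, with -0.34 in its other probe set. Dhps, which transfers the spermidine part, had 0.35, with -0.003 in its other probe set, and Dohh, which completes hypusine, read 1072 and 752, with -0.51, the lowest of the genes measured on both arrays. Dohh had 1 probe set above the floor. Eif5a was thus lower in both of its probe sets, each by less than the within-gene SD of 0.36.

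Transport genes were 4 higher and 7 lower. Atp13a3, a transporter tied to polyamine uptake, read 1470 and 1987, a log2 ratio of 0.43, against -0.05 in the other that reached the floor, and Slc18b1, a vesicular polyamine transporter, had -0.29. Slc7a1, which imports arginine, had 0.08 and 0.41 in its other probe set. Slc7a7, an exporter of basic amino acids, was at least 1.30-fold lower, and Gpc1, a proteoglycan tied to polyamine uptake, read 169 and 30.3, at the floor and below it. Sat2, a relative of Sat1, read 344 and 250, with -0.46, and Azin2, the other antizyme inhibitor, read 689 and 592, with -0.22. Among transcription factors, Myc, an activator of Odc1, read 1144 and 1128, a ratio of -0.02, and Mxi1, an antagonist of Myc, had 0.14 with -0.19 in its other probe set. By the brightest probe set, the lowest of the 6 genes of transcriptional control was Max, the partner of Myc, with a bound of -0.27. Ppargc1a had -0.13 in its brightest probe set. Its other 4 ran from -1.94 to 0.51, and 3 of them were opposite in sign to the brightest. The testis-type antizyme Oaz3 had 6 probe sets, and its brightest was below the floor on both arrays.

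**Figure D4:**
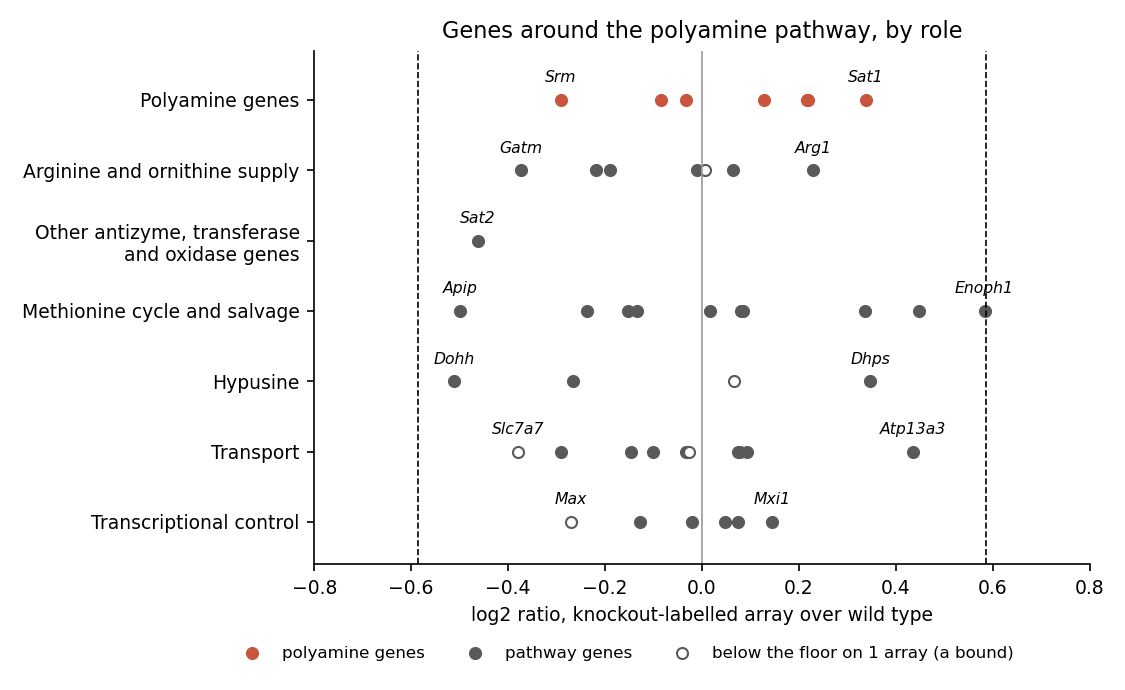
Log2 ratio (knockout-labelled array over wild type) of the 7 polyamine genes (red) and of 39 genes around the pathway by role (grey), 1 point per gene by its brightest probe set, open where 1 array was below the floor so that the value is a bound. Dashed lines mark 1.5-fold, which no gene passed with the signals as deposited; among genes measured on both arrays, Enoph1 at 0.58 and Dohh at -0.51 lie farthest out.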

How the data were processed

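RNA of 2 ventral prostate samples was measured on 1 Affymetrix array each. The deposited values were linear probe-set signal intensities. GCOS 1.4, per the submitters' processing notes, is the only software named, with no settings stated. The mean without the top and bottom 2% was 500.0 on both arrays, so scaling had been applied per array. Gene names came from the platform annotation. Of its symbols, checked through 34741 matched probe sets in a mouse gene table (GRCm38.p6, names only), 0 differed. No genome build is named by the files, so no coordinates are given.

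Log2 ratios were computed with Python 3.11.15 (numpy 2.4.6, pandas 2.3.3, statsmodels 0.14.6 for loess). The brightest probe set by mean log2 signal stood for its gene, which entered when its higher array reached the 50th percentile of pooled signals. Named were all members, with every probe set, and from the list around the pathway genes past 1.5-fold, the 3 highest and 3 lowest ratios and up to 2 examples per role. Having 1 array per genotype allowed no test, and it limits the precision. Alternatives were median centring, quantile normalization, loess (span 0.4), other floors, a pseudocount of 50, other probe-set choices and other fold thresholds. The calculations were tested on simulated arrays. The changes put in were at least 2-fold and the noise was below the within-gene SD, so recovery of smaller differences was not tested. Members and lists were chosen with earlier results of these data known. Where a role has more names than that, the others were added after their values were seen.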

Additional observations from a re-analysis of the deposited data

How the results depend on the processing

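The count of polyamine genes at least 2-fold apart was 0 under all 10 alternatives of scaling, floor, pseudocount and choice of probe set, and at thresholds of 1.5-fold and 3-fold. The number of genes above 0 stayed between 3 and 5. A move was measured against the within-gene SD of 0.36, or that SD over the square root of the number of genes for a median. By that measure none of the 7 polyamine genes moved, although Odc1 changed sign in 3 of 9 alternatives. This says little about probe-set choice. Srm, Sat1, Oaz1 and Smox each had 1 probe set that reached the floor, so that choice could not change their values. No alternative took the third Azin1 probe set (-0.67) for its gene. Of the 39 genes around the pathway 6 moved. Enoph1 (to -0.06), Mtap (to -0.39) and Atp13a3 (to -0.05) did so with other choices of probe set, and Eif5a2 (to 0.47), Slc7a7 (to -0.74) and Gpc1 (to -2.48 with no floor) with lower floors. Leaving out probe sets whose names end in _a_at, _s_at or _x_at removed Odc1, Srm and Oaz1, and a floor at the 70th percentile removed Smox. Of the genes around the pathway, 1 (Gpc1) was 2-fold apart at the floor of the 30th percentile and 5 (Gpc1, Nnmt, Slc22a2, Mat1a and Ass1) with no floor, named here after their values were seen. These alternatives let in dimmer signals. The median of the genes around the pathway turned from -0.02 to 0.0402 under median centring, while the median over all genes turned from -0.03 to 0.03. Of all genes, 4.75% were 2-fold apart at that lower floor, 15.7% without a floor, 0.773% at the floor of the 70th percentile, 0.814% with a pseudocount of 50 and 0.966% when the probe set nearest to a ratio of 0 stood for its gene, against 1.47%. Their split of 69 higher and 103 lower became 89 and 82 under median centring, 82 and 69 under quantile normalization and 83 and 64 under loess. No paired analysis was possible because each genotype had 1 array, and no array could be left out. No replicates exist to say whether a difference near 1.2-fold would recur.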
